A study of Homo sapiens with 16 samples.

Results

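Macro-others is the name that the authors of the data gave to 1 of 22 cell clusters in mouse mammary tumors, and it stands for tumor macrophages that they put under neither Macro-M1 nor Macro-M2. The cells described here are those that carry the name in the deposited cell annotation, in 16 pools of cells from 3 experiments. They numbered 5416 of 48824 cells after repeated copies of a barcode were set aside. Of these, 3959 came from the long-term experiment, 1244 from the short-term T22 experiment and 213 from the short-term T127 experiment. They are described beside the Macro-M1 cells (982 long-term and 1203 T22) and the Macro-M2 cells (3567 long-term, 670 T22 and 1174 T127) of the same experiment.

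The study asked how macrophages differ between mammary tumors that respond to olaparib, an inhibitor of the DNA repair enzyme PARP, and tumors that do not. LPA1-T22 is the sensitive and LPA1-T127 the resistant tumor. Both are transplantable lines from transgenic mice that express the LPA1 receptor in mammary epithelium, and both were grown as tumor chunks in the mammary fat pad of female FVB mice, which were 6 weeks old when bought. Cells were captured in droplets and their RNA was counted as unique molecular identifiers (UMIs), each standing for 1 captured RNA molecule. In the long-term experiment mice carried 1 line or had both lines in opposite fat pads, and received vehicle or olaparib by mouth at 50 mg/kg daily for 20 days. In the short-term T22 and the short-term T127 experiment mice carried that 1 line and received vehicle or olaparib for 4 or 8 days. Each pool mixes the cells of several tumors, and a cell was not tied to its tumor here, so vehicle and olaparib were not compared. The labels number the 8 long-term, 4 T22 and 4 T127 pools without naming the tumors in each, so each experiment counts as 1 sample here and no difference below has a test across animals.

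Macrophages take up dying cells and debris, present antigen on MHC class II molecules and release cytokines and chemokines. In tumors they derive largely from blood monocytes, beside populations that reside in the tissue. The names M1 and M2 come from a scheme in which M1 stands for an inflammatory and M2 for a repair-associated, often tumor-supporting state, with Arg1, Mrc1 and Chil3 among the usual M2 genes in mice. Cells that show neither pattern are commonly left with a residual name, and such a group can hold macrophages in several states as well as related cells such as dendritic cells, which carry antigen to T cells.

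Long-term pools 1, 2 and 3 shared cell barcodes. Pools 1 and 2 had 3939 cell barcodes in common, pools 1 and 3 had 987, pools 2 and 3 had 1082, and no other pair of long-term pools had more than 8. Only the deepest copy of a shared barcode was kept, which set aside 247 Macro-others copies, 5.87% of those deposited in the long-term experiment. The copies did not carry stable names. Of 1325 shared barcodes with at least 1 copy named Macro-others, every copy had that name in 55, or 4.15%, and 1366 of the other copies were named CD16-CDKN1C, a cluster of monocytes and macrophages. Copies of 1 barcode thus often carried the name Macro-others in one pool and CD16-CDKN1C in another. Whether the copies were the same cell was not tested. The long-term pools also differed in level: the summed MHC class II genes of Macro-others were between 45354 and 49485 CPM in pools 1 to 4 and between 36310 and 39862 in pools 5 to 8, and the interleukin-1 family between 3675 and 4335 and between 4860 and 5518 CPM. A gene called below went the same way in every pool, and so in both sets of pools.

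Macro-others made up a larger share of cells in the long-term experiment than in either short-term one. Its share of all cells was 15.4% in the long-term experiment (exact Clopper-Pearson 95% interval 14.95 to 15.84%, of 25723 cells), with pools at 13.8% at the lowest, 15.6% at the median and 16.8% at the highest. In the T22 experiment the share was 8.24% (7.81 to 8.69%, of 15094 cells), and the pools held 7.98%, 8.59%, 8.16% and 8.25%. In the T127 experiment it was 2.66% (2.32 to 3.04%, of 8007 cells), with 2.45%, 2.48%, 2.91% and 2.79% in the pools. No pool of one experiment reached the range of another. Of the 3 macrophage clusters together with the cycling MKI67 cluster, Macro-others was 44.3% in the long-term, 36.1% in the T22 and 13.4% in the T127 experiment. The experiments differ in tumor line, treatment time and pooling at once, so their parts in these shares cannot be told apart, and the intervals cover counting error only.

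**Figure D1:**
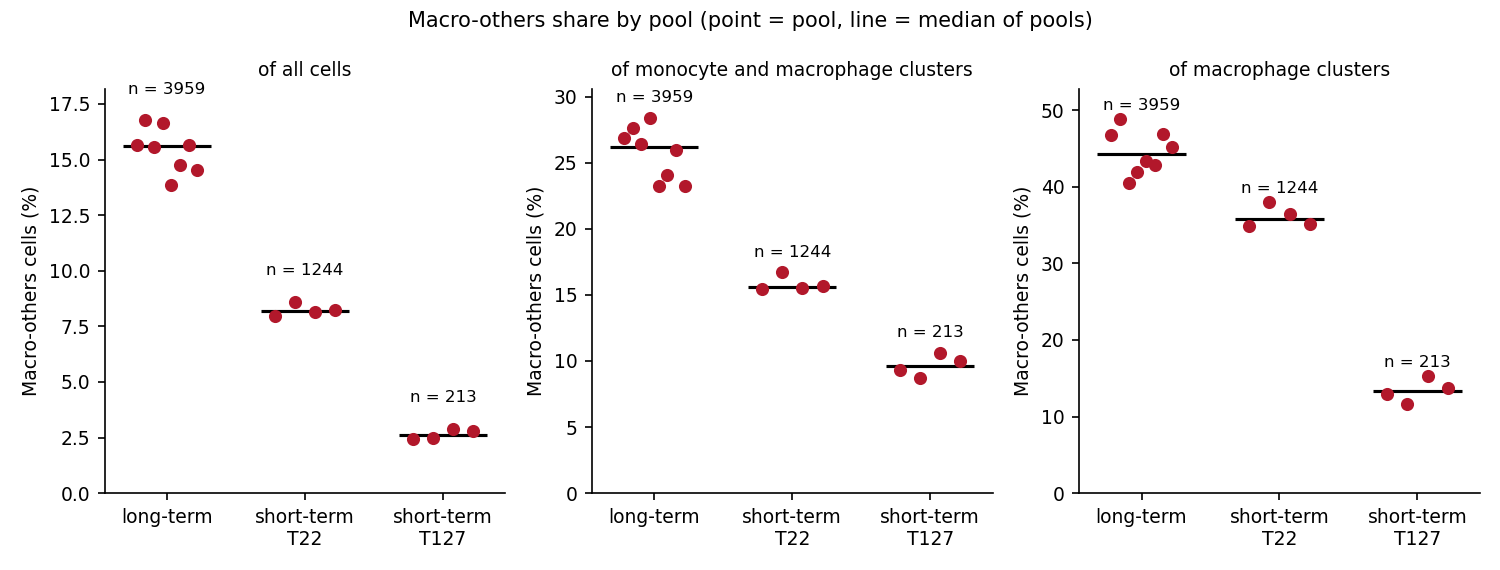
Share of cells named Macro-others, in percent, of all cells, of the monocyte and macrophage clusters and of the macrophage clusters (panels), by experiment. Each point is a pool and each line the median of an experiment's pools; of all cells, long-term pools sit between 13.8% and 16.8% and T127 pools between 2.45% and 2.91%.

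The median Macro-others cell held 9623 UMIs in the long-term, 10928 in the T22 and 11111 in the T127 experiment. Macro-M1 cells were deeper, with medians of 11639 and 13810 in the long-term and T22 experiments, and so were Macro-M2 cells in the long-term experiment at 11168 and in T22 at 13221. Levels below are UMIs of a gene per 1000000 UMIs (CPM), summed over the cells of a cluster in an experiment or in a pool, and each log2 difference has 1 CPM added to both sides.

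The label was checked against 3 genes that mark it, Adgre1, which encodes the macrophage surface protein F4/80, C1qb, a chain of the complement starter C1q, and Il1a, the cytokine interleukin-1 alpha. In the long-term experiment Adgre1 was at 109.9 CPM in Macro-others, with pools from 95.03 over a median of 110.8 to 123.7. C1qb was at 6811 CPM, with pools at 6394, 6774 and 7289 for the lowest, median and highest. Il1a was at 334.6 CPM, with pools at 276.6, 334.1 and 377.7 in the same order. Of 21 clusters with enough cells, Macro-others ranked first for C1qb and second for Adgre1 and Il1a. All 3 genes were therefore high in these cells, but none set them apart from Macro-M1, where Adgre1 was at 104.5, C1qb at 6603 and Il1a at 352.3 CPM, and the pools of the 2 clusters overlapped for each gene.

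In the T22 experiment Macro-others ranked first of 17 clusters for all 3 genes. Adgre1 was at 162.0, 172.0, 178.6 and 169.2 CPM in the pools and C1qb at 4821, 4722, 4807 and 4930. Il1a was at 430.1, 467.0, 473.4 and 548.3 CPM in Macro-others against 200.8, 233.4, 182.4 and 188.0 in Macro-M1 and 323.7, 357.7, 232.6 and 359.6 in Macro-M2. Every Macro-others pool was above every pool of both other clusters for Il1a, by 2.39-fold over Macro-M1 (95% counting interval 2.3 to 2.49) and 1.49-fold over Macro-M2 (1.43 to 1.56).

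In the T127 experiment Il1a was low, and C1qb was found in a smaller share of cells than in the other experiments. Adgre1 was at 146.0 CPM and C1qb at 2716 CPM, second of 14 clusters for each, but Il1a was at 8.79 CPM, with 1.62, 11.3, 15.1 and 5.96 in the pools. Macro-M2 of that experiment had more Il1a in every pool, 20.3 CPM over all (16.1, 33.0, 17.7 and 13.7). With each cell thinned to 3000 UMIs, Il1a was found in 37.2% of long-term, 39.5% of T22 and 2.43% of T127 Macro-others cells, and without thinning in 54.4%, 54.5% and 4.69%. In lymphocytes, which should lack Il1a, the thinned share was 1.40% in the long-term experiment and 0.381% in T22, and 0 of 338 cells in T127, which allows up to 1.09%. C1qb, by contrast, reached lymphocytes too, in 14.3% of thinned long-term lymphocytes against 93.6% of thinned Macro-others cells. In T22 the thinned C1qb share of Macro-others cells was 96.5%. In T127 it was 49.0%, beside 42.4% of Macro-M2 cells, although the summed level ranked second.

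**Figure D2:**
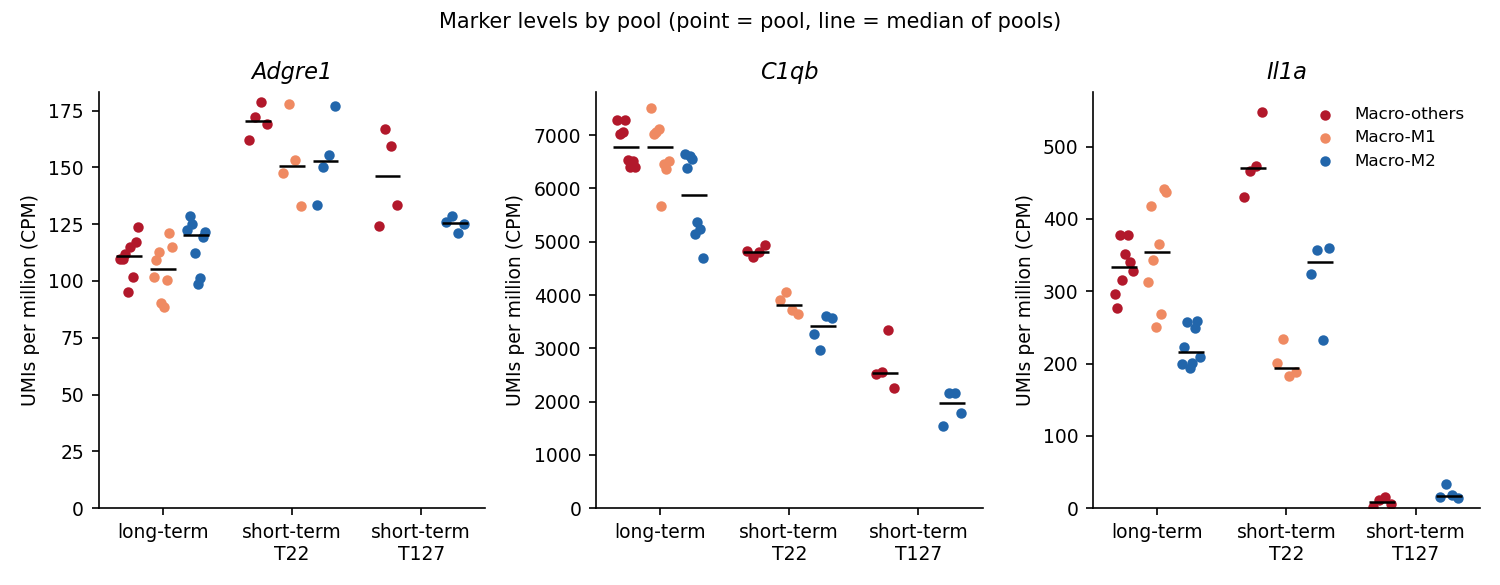
Levels of Adgre1, C1qb and Il1a in CPM (vertical axes) in Macro-others, Macro-M1 and Macro-M2 of each experiment; each point is a pool. Il1a in Macro-others sits between 276.6 and 377.7 CPM in the long-term pools, between 430.1 and 548.3 in T22 and between 1.62 and 15.1 in T127.

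The name covered cells of several kinds. Clustering the 5416 cells again by their 2000 most variable genes gave 17 subclusters, numbered from 0 by size. The genes that lead them are descriptions of how the cells were divided, with no test. The remaining cells that a subcluster is set against come from all 3 experiments. Where a subcluster lies mostly in 1 experiment, such a contrast also holds differences between experiments. Macrophage subclusters 0, 2 and 3 made up most of the long-term cells and subcluster 1 most of the T22 cells. Cells with dendritic cell or tissue-resident genes made up most of the T127 cells. Subclusters 13, 14 and 16 met the listed markers of dendritic or mast cells, and most leading genes of 9, 11, 12 and 15 were highest outside the monocyte and macrophage clusters. Whether or not they kept macrophage genes, these 7 held 219 long-term cells (5.53%), 188 T22 cells (15.1%) and 32 T127 cells (15.02%). Subcluster 4 carried dendritic cell and monocyte genes together. With it these 8 subclusters held 554 long-term cells, or 14.0% (pools 11.7 to 16.5%), 203 T22 cells, or 16.3%, and 115 T127 cells, or 54.0% (46.2 to 63.5%). Divided more finely into 23 subclusters, the shares by the same rule were 25.5%, 16.4% and 44.1%. The finer rule also counted cells with high macrophage markers. Among them were 323 long-term cells of a subcluster with C1qb at 7811 and Adgre1 at 115.0 CPM. Another 151 lay in a subcluster with C1qb at 9226 and Adgre1 at 107.1 CPM and a median of 3421 UMIs.

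Subcluster 0, with 1431 cells, got no name from the marker lists and is described by genes chosen after their values were seen. It held 36.0% of the long-term Macro-others cells (31.8 to 38.1% by pool). Its Il1b, the cytokine interleukin-1 beta, was at 6076 CPM against 2748 in the remaining cells. Its Il1a was at 622.3 CPM, no higher than the 630.5 CPM of subcluster 1. Vcam1, an adhesion molecule, was at 1279 against 568.8 CPM, and Gdf15, a stress-induced growth factor, at 50.0 against 18.9. Subcluster 2, with 720 cells of which 707 were long-term, got no name from the marker lists either and had Il1a at 61.2 CPM. Its cells were shallower, with a median of 7471 UMIs against 9263 in subcluster 0, and what depth adds to this division was not tested. Subcluster 2 was led by the iron exporter Slc40a1, at 33.3 against 15.3 CPM, and by Selenop, which encodes a selenium carrier protein, at 1794 against 1033. Subcluster 3, with 445 cells, was interferon-stimulated by 16 of the 20 genes listed for that response. Its Rsad2, an antiviral enzyme, was at 592.9 against 31.6 CPM, and Cxcl10, a chemokine for T cells, at 976.3 against 201.

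Subcluster 1 held 729 of the 1244 T22 cells, 58.6% (55.5 to 63.2% by pool), and 3 cells of the other experiments. It was led by genes that respond quickly to receptor signalling, with Egr3 at 161.4 against 15.2 CPM, Rcan1 at 147.2 against 15.8 and Nr4a3 at 241.3 against 59.4. The same cells carried Il10, an anti-inflammatory cytokine, at 38.9 against 8.22 CPM, together with Ccl3, an inflammatory chemokine, at 1575 against 401.6. Most of the remaining cells were long-term, so these contrasts also hold differences between the experiments. T22 Macro-M1 had Egr3 at 84.2, Rcan1 at 43.5, Il10 at 5.14 and Ccl3 at 514.8 CPM. Subcluster 0 held 5 T22 cells.

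Subcluster 7, with 234 cells, expressed 14 of the 15 listed genes of tissue-resident macrophages above the rest of the cells. Of its 20 leading genes 10 were highest in Macro-M2. Folr2, a folate receptor, was at 361.9 against 8.79 CPM, Lyve1, a hyaluronan receptor, at 58.4 against 0.195, Cd163, a hemoglobin scavenger receptor, at 47.9 against 0.533, and the chemokine Ccl8 at 3726 against 48.2. It made up 31.0% of the T127 cells (28.8 to 32.6% by pool), 4.09% of the long-term and 0.482% of the T22 cells. Its Adgre1, at 348.5 CPM, and C1qb, at 8842 CPM, were high, and its Il1a was at 22.7 CPM. C5ar1, the receptor for complement fragment C5a and the gene the study followed, was at 284.0 CPM there. It was at 180.4 CPM in subcluster 0, nearly all long-term, and at 101.5 in subcluster 1, nearly all T22. Macro-M1 also had less C5ar1 in T22, at 64.9 CPM, than in the long-term experiment, at 138.3. Subcluster and experiment therefore cannot be told apart in the difference between subclusters 0 and 1. Subcluster 10, with 137 cells and 13 of 15 listed monocyte genes, carried Chil3 at 5466 against 11.5 CPM, the arginine-degrading enzyme Arg1 at 2399 against 14.8 and Nos2, the nitric oxide synthase that uses the same amino acid, at 257.6 against 0.451. Its summed neutrophil list was at 3402 against 45.9 CPM, through S100a8, S100a9, Retnlg and Mmp8. It held 12.7% of the T127 and 2.55% of the long-term cells. Its macrophage identity list summed to 16309 against 35335 CPM, with C1qb at 1055. Monocyte genes did not count as those of another cell type, so subcluster 10 was not among the subclusters left out below.

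Subclusters 5, 6 and 8 were led by cell cycle genes and held 599 long-term (15.1%), 241 T22 (19.4%) and 5 T127 cells (2.35%). Subcluster 6, with all 18 listed cell cycle genes above the rest, carried the replication histone Hist1h1b at 2218 against 57.5 CPM. Subcluster 5 was led by genes of mitosis, with Ccnb2 at 402.9 against 26.1 and Cenpf at 552.5 against 40.8, and subcluster 8 by the DNA replication genes Mcm6, at 190.8 against 29.6, and Mcm3, at 282.3 against 54.5. The authors also had a separate MKI67 cluster of cycling cells, with 420 long-term, 330 T22 and 198 T127 cells, so the name Macro-others did not leave all cycling macrophages out. The T127 share is not that of all dividing cells. In the finer division into 23 subclusters, 1 subcluster that was not named by cell cycle genes had all 18 of them above the rest and held 21 T127 cells (9.86%).

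Subclusters 4, 13 and 14 carried genes of dendritic cells. Subcluster 4, with 433 cells, had Ccl17, a chemokine for T helper and regulatory T cells, at 1473 against 9.88 CPM, the lectins Cd209a at 300.6 against 1.26 and Mgl2 at 938.7 against 22.6, Asgr2 at 1506 against 14.7 and Plet1 at 581.8 against 11.7. It met 4 of 9 listed genes of conventional dendritic cells type 2 and also 6 of 15 monocyte genes, and 8 of its 20 leading genes were highest in CD14-IL1B, another deposited cluster, so it is called here by its genes. It held 39.0% of the T127 cells (36.5 to 42.9% by pool), 8.46% of the long-term cells (6.9 to 11.5%) and 1.21% of the T22 cells. Subcluster 13, with 49 cells, was cDC1-like by 6 of 7 genes and had the chemokine receptor Xcr1 at 418.9 against 0.463 CPM. Its Adgre1 was at 2.12 and its C1qb at 40.2 CPM, so these cells had little of those markers of the name they carry, although 13 of their 20 leading genes were highest in CD14-IL1B. Subcluster 14, with 47 cells, was mature dendritic cell-like by 8 of 8 genes, with Fscn1, an actin-bundling protein of their extensions, at 3112 against 4.16 CPM and Ccr7, the receptor that leads them to lymph nodes, at 2932 against 8.74, and 9 of its 20 leading genes were highest in monocyte and macrophage clusters. It held 7.51% of the T127 cells and 0.707% of the long-term cells.

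The remaining subclusters carried genes of other lineages. Subcluster 9, with 173 cells of which 167 were from T22, had a median of 4661 UMIs, and 16 of its 20 leading genes were highest in Malign_2, a deposited cluster of T22 tumor cells. Its macrophage genes were not low: the identity list summed to 38404 CPM against 34938 in the remaining cells, with C1qb at 6543 and Adgre1 at 181.6, while the epithelial list was at 141.4 against 246.2 and the fibroblast list at 488.7 against 144.6. Subcluster 11, with 72 cells and a median of 25035 UMIs, had Dcn, a matrix proteoglycan, at 1927 against 18.7 CPM and 13 of 20 leading genes highest in the T127 tumor cluster Malign_0. Subcluster 15, with 35 cells, had all 8 listed epithelial genes above the rest, and 18 of its 20 leading genes were highest in Malign_3. Subcluster 12, with 53 cells, had T cell and natural killer genes such as Cd3g at 318.6 against 1.46 CPM. Subcluster 16, with 10 cells, was mast cell-like by 5 of 6 genes. Whether a droplet of these subclusters held 1 cell or several was not tested.

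**Figure D3:**
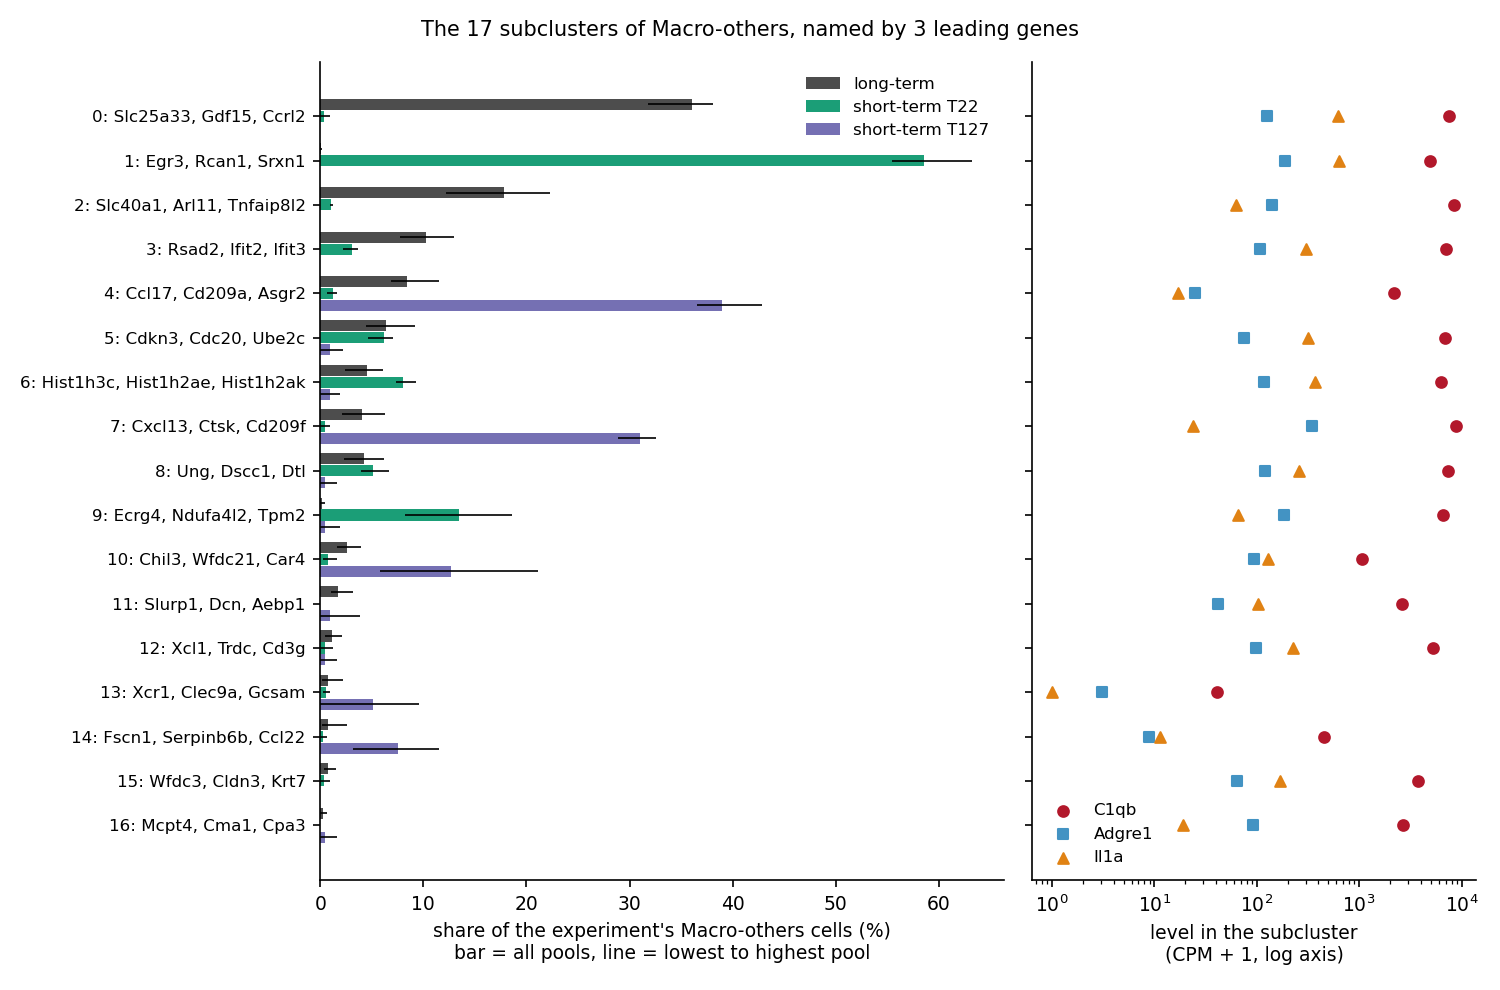
The 17 subclusters of Macro-others cells (rows). Left, percent of each experiment's Macro-others cells in a subcluster, with a line from the lowest to the highest pool; right, levels of C1qb, Adgre1 and Il1a on a log axis (CPM + 1). Subcluster 0 holds 36.0% of long-term, subcluster 1 58.6% of T22 and subcluster 4 39.0% of T127 cells.

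The first comparison asked what separates long-term Macro-others from Macro-M1. The 2 clusters were close: genes of macrophage identity did not differ by 2-fold, 6 of 13 measured cell cycle genes were higher in Macro-others, and many of the other named genes that were higher had most of their UMIs in a minority of cells. A gene is called higher or lower here when it reached 20 CPM in either cluster, differed at least 2-fold over the experiment and went the same way in every pool. Of 4901 genes measured, 44 were called higher in Macro-others (0.898%) and 2 lower (0.0408%), or 46 in all (0.939%). The count was 22 to 26 with 10 CPM added, without the deepest 5% of cells, with thinned cells or as a mean over cells. Of the genes described below, Top2a and Crabp2 were not called under any of the first 3 of these settings, Fscn1, Timp3, Wfdc2 and Hmga2 were not called with thinned cells or without the deepest cells, Tm4sf1 not without the deepest cells, and Gbp2b not with 10 CPM added. The pools of the clusters did not overlap for 70 genes (1.43%). The median log2 difference over all measured genes was 0.06. None of 16 macrophage identity genes was called (median log2 0.04), none of 9 MHC class II genes (-0.24) and none of 15 interferon-stimulated genes (-0.34).

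The cell cycle list held the most called genes of any list. Of 13 measured cell cycle genes of 18 listed, 6 were called higher and none lower, with a median log2 difference of 0.78. Top2a, the topoisomerase that untangles replicated chromosomes, was at 132.5 CPM (89.7, 131.8 and 154.9 for the lowest, median and highest pool) against 65.5 (27.6, 74.1 and 99.0), a ratio of 2.02 (1.88 to 2.18). Its call was lost without pool 4 (log2 0.97 in place of 1.01) and without pool 7 (0.91). Birc5, a survival protein of mitosis, was at 95.9 CPM (67.6, 94.0 and 116) against 38.9 (2.66, 39.5 and 59.8), a ratio of 2.47, and its pools did not overlap. Ccnb2, a cyclin of mitosis, was at 49.5 against 18.4 CPM and Cdk1, the kinase it drives, at 50.3 against 21.6. Without the 3 dividing subclusters none of 10 measured cell cycle genes was called higher, 1, Top2a, was called lower (log2 -1.44) and the median was -0.51, as leaving those cells out brings about by itself.

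Several genes with large differences came from few cells. Of 4 measured mature dendritic cell genes Ccl17 and Fscn1 were called higher (median 2.12), and of 3 type 2 and 4 type 1 genes none was (0.14 and -0.08). Ccl17 was at 118.2 CPM (65.2, 112.1 and 176.7) against 24.9 (0, 21.2 and 65.8) in Macro-M1, a log2 difference of 2.20, and 92.1% of its Macro-others UMIs lay in subcluster 4. Asgr2, a subunit of a receptor for galactose-ended glycoproteins, was at 185.4 CPM (139.8, 174.4 and 248.6) against 30.8 (5.13, 22.7 and 79.9), log2 2.55, with 91.5% of its UMIs in the same subcluster. Plet1, a surface protein of progenitor and some myeloid cells, was at 44.3 against 7.74 CPM, log2 2.37, with 79.0% there, and Ifitm1, an interferon-induced membrane protein, at 58.8 against 9.87 CPM, log2 2.46, with 66.2% there. Every pool of Macro-others was above every Macro-M1 pool for Asgr2, Plet1 and Ifitm1, whereas the lowest Ccl17 pool lay just under the highest Macro-M1 pool. Fscn1 was at 21.97 CPM (4.60, 15.9 and 71.3) against 3.06, log2 2.50, and 76.6% of it lay in the 28 cells of subcluster 14. Without pool 2 its difference was 1.98 and the call was lost.

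Cxcl13, a chemokine that attracts B cells, had the largest difference. It was at 30.1 CPM in Macro-others, with pools at 1.49, 10.3 and 159, against 0.255 CPM in Macro-M1, a ratio of 118 with a counting interval of 40.3 to 574. Of its 1265 UMIs, 94.6% lay in tissue-resident-like subcluster 7 and 44.5% in 1 cell, so much of this level comes from 1 cell. Without pool 7 the log2 difference was 3.43 in place of 4.63 and Cxcl13 was no longer called. Several other genes likewise lay in few cells. Of 3 epithelial genes Epcam was called higher, and of 2 fibroblast genes Dcn was. Epcam and Cdh1 were also raised in subcluster 4, which carried dendritic cell genes. Its epithelial list summed to 1253 against 139.4 CPM in the remaining cells of all experiments. Tm4sf1, a membrane protein, was at 52.2 against 11.7 CPM (log2 2.07), Timp3, an inhibitor of matrix proteases, at 25.0 against 6.29 (1.83), Crabp2, a retinoic acid carrier, at 25.6 against 8.00 (1.56) and Hmga2, a chromatin protein, at 28.2 against 8.08 (1.69), and 76.9%, 77.2%, 78.6% and 74.9% of them lay in the 70 long-term cells of subcluster 11. Timp3 was not called without pool 6, at log2 1.52. Wfdc2, a secreted epithelial protein, was at 32.2 against 7.40 CPM (1.98), with 69.7% in subcluster 15.

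Lysozyme 1 and an interferon-induced GTPase were the 2 genes called lower. Lyz1 was at 24.3 CPM (4.14, 18.1 and 91.6) against 176.2 (17.1, 166.6 and 336), a log2 difference of -2.81, and Gbp2b was at 15.6 against 35.0 CPM, log2 -1.12. Without pool 5 Lyz1 stood at -3.44 and Gbp2b at -0.98, no longer called. Several genes of inflammation and of its control were lower in every pool without reaching 2-fold. The T cell chemokine Cxcl10 was at 264.8 CPM (180.6, 266.0 and 330.2) against 522.1 (373.2, 512.6 and 742.9), a log2 difference of -0.98 with no overlap, and Il1rn, the antagonist of the interleukin-1 receptor, was at 133.4 against 216.6 CPM. Il1b was at 3732 against 4827 CPM. Retnla, a secreted protein of alternative activation, was at 50.4 against 472.8 CPM and missed the call because 1 of 8 pools went the other way.

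When subclusters 4, 9 and 11 to 16 were left out of Macro-others, while Macro-M1 kept all of its cells, 49 genes were called, 29 higher and 20 lower, and 19 of the first 46 remained. Asgr2 then stood at a log2 difference of -1.56, Plet1 at -1.14, Ccl17 at -3.06, Tm4sf1 at -0.30, Wfdc2 at -0.35, Timp3 at -0.17, Crabp2 at -0.58 and Hmga2 at -0.15, while Cxcl13 stayed at 4.88 and Top2a at 1.15. With subcluster 4 kept 32 genes were called, 29 higher and 3 lower, of which 26 were among the first 46. Those subclusters were divided by such genes, so that the genes turn when they are left out is by construction.

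**Figure D4:**
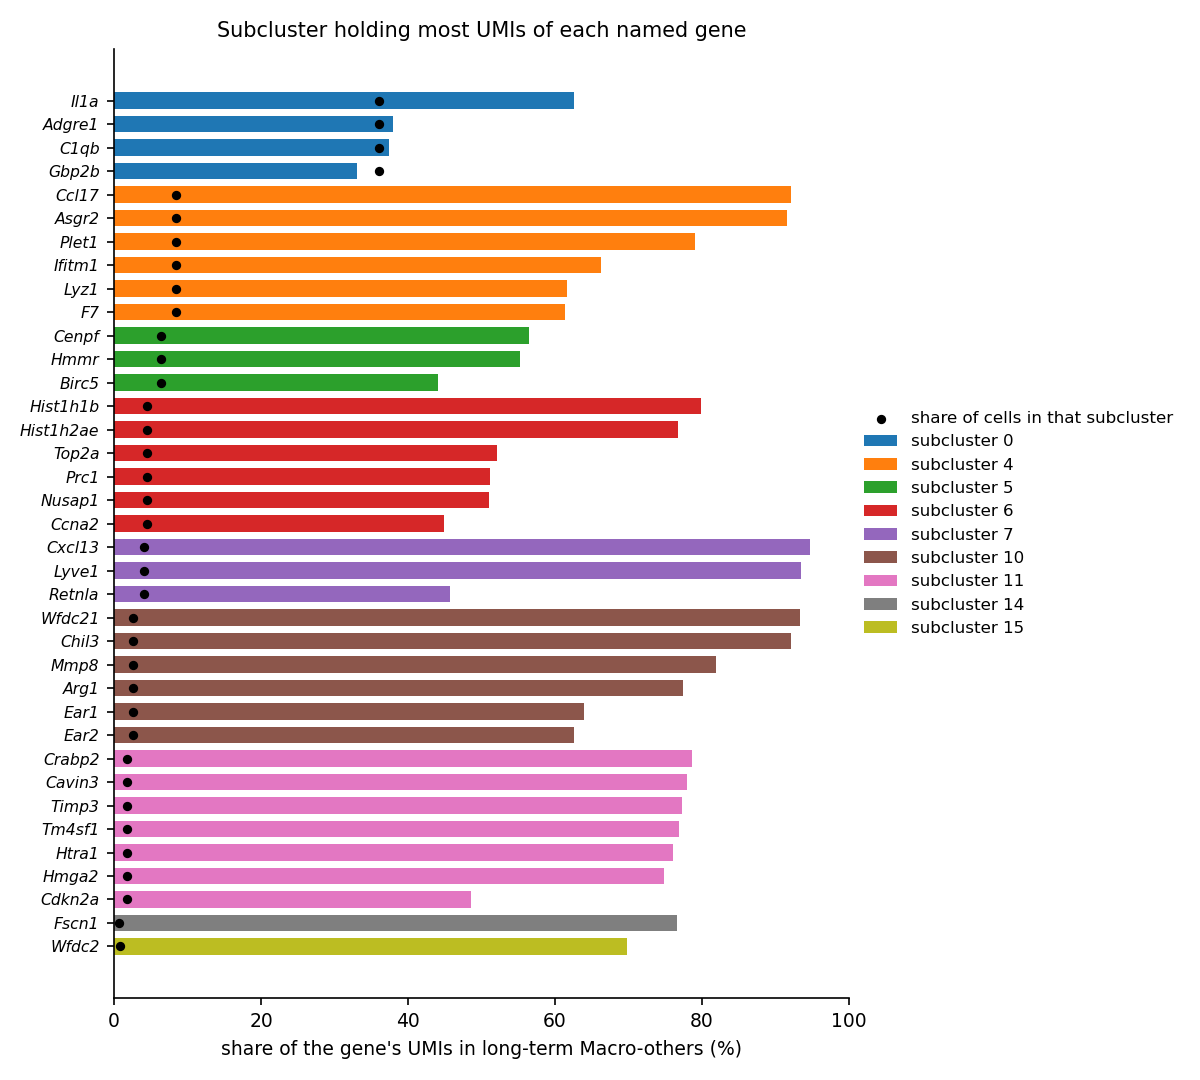
Percent of each named gene's long-term Macro-others UMIs (horizontal axis) that lay in the 1 subcluster holding most of them; dots mark that subcluster's percent of cells. Ccl17 has 92.1% of its UMIs in a subcluster with 8.46% of the cells and Cxcl13 94.6% in 1 with 4.09%.

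Against long-term Macro-M2, the Macro-others cells had less of most measured genes of monocytes and tissue-resident macrophages, and more of 4 cell cycle genes. Of 5094 genes measured, 33 were called higher (0.648%) and 117 lower (2.3%), 150 in all (2.94%), with a median log2 difference of -0.01 over all of them. Pools did not overlap for 491 genes (9.64%). Macrophage identity genes again lay close, with 1 of 16, the integrin Itgam, called lower (119.6 against 248.7 CPM) and a list median of 0.07. MHC class II genes had a median of 0.31 with none of 9 called. H2-Aa, a chain of the presenting molecule, and Cd74, its invariant chain, were each higher in 8 of 8 pools by less than 2-fold.

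Of the genes commonly used to mark the M2 state, Arg1, Mrc1, Chil3 and Retnla were called lower, which the names of the clusters may already imply. Arg1 was at 70.1 CPM in Macro-others (25.3, 70.1 and 99.4) against 390.4 (132.6, 390.9 and 726.6) in Macro-M2, a ratio of 0.18 (0.173 to 0.187), and the pools did not overlap. Mrc1, the mannose receptor CD206, was at 156.7 CPM (91.6, 154.3 and 223.9) against 535.4 (455.7, 503.3 and 765.5), a ratio of 0.293. Chil3, a chitinase-like protein, was at 141.0 CPM (68.1, 130.5 and 293.9) against 1039 (221.5, 934.3 and 2772), log2 -2.87, with 92.2% of it in subcluster 10. Retnla was at 50.4 CPM (1.66, 13.8 and 209.2) against 559.8 (210.7, 569.6 and 957.4), the largest difference among the genes named here at log2 -3.45, or -4.39 without pool 7. All 4 genes were lower in every pool, and of these 4 the ranges of pools met for Chil3. Retnla and Chil3 lost their calls when the dividing subclusters were left out (log2 -3.20 and -2.58), since not every pool then went the same way.

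Monocyte genes were called lower in 8 of 12 measured, with none higher and a median of -1.50. Ly6c2, the surface marker of inflammatory monocytes, was at 17.4 against 91.4 CPM (log2 -2.33), Ccr2, the receptor that brings them from the blood, at 11.8 against 28.9 (-1.22), Plac8 at 56.2 against 196.6 (-1.79) and fibronectin, Fn1, at 144.7 CPM (93.0, 138.7 and 214.1) against 765.9 (384.4, 723.7 and 1334). Of 14 tissue-resident genes 9 were called lower, with a median of -1.97. Folr2 was at 28.5 CPM (10.8, 25.8 and 43.9) against 119.9 (95.3, 122.6 and 147.7), Pf4, a platelet-type chemokine that resident macrophages also make, at 266.2 against 1139 and Igf1, a growth factor, at 8.29 against 24.9.

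Of 18 measured chemokine ligands 7 were called lower (Ccl2, Ccl6, Ccl7, Ccl8, Ccl9, Cxcl3 and Pf4) and none higher, with a median of -0.69. Ccl8 was at 270.4 CPM (111.7, 296.7 and 514.2) against 1079 (535.9, 1019 and 1649), Ccl2 at 189.5 against 653.0, Ccl7 at 135.1 against 532.9 and Ccl6 at 391.7 against 2003, and the pools of the clusters did not overlap for any of the 4. Spp1, osteopontin, was at 679.3 against 1573 CPM and Fabp5, a fatty acid carrier, at 187.3 against 398.2, the 2 of 14 lipid-associated genes that were called lower. C5ar1 did not reach 2-fold, at 145.7 CPM (114.7, 144.6 and 171.8) against 233.8 (177.2, 224.1 and 295.9), a ratio of 0.623 (0.603 to 0.643) with no overlap of pools. Against Macro-M1, at 138.3 CPM, the C5ar1 ratio was 1.053 and the pools overlapped.

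Cell cycle genes were called higher in 4 of 13, with a median of 0.84 and none lower. Top2a was 2.77-fold higher than in Macro-M2 (2.63 to 2.92), at 132.5 against 47.8 CPM, and Mki67, a protein of all dividing cells, was at 86.5 against 42.6. Prc1 and Cenpf, which act at the mitotic spindle and the kinetochore, were at 68.3 against 17.6 and 63.0 against 17.9 CPM. Without the dividing subclusters the calls went from 150 to 96, of which 12 were higher and 84 lower, and Ccl8, Fabp5 and Itgam (log2 -1.83, -0.97 and -0.89) were no longer called. Top2a, Mki67, Prc1 and Cenpf also lost their calls (log2 -0.99, -0.85, -0.85 and -0.69) and Birc5 turned from called higher to called lower (-1.03), as leaving dividing cells out brings about by itself. Without subclusters 4, 9 and 11 to 16 Ccl8 (-1.82) and Itgam (-0.997) lost their calls, the monocyte list was called lower in 10 of 12 genes (median -2.55) and the tissue-resident list in 10 of 14 (-1.88).

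Of the 4874 genes measured against both references in the long-term experiment, 21 were called higher than in both (0.431%). Among them were Cenpf, Nusap1, Birc5 and Ccna2, but not Mki67, which was not called against Macro-M1. Only 1, Lyz1, was called lower than in both (0.0205%). Both comparisons use the same Macro-others cells, so they are not independent.

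In the short-term T22 experiment the comparison with Macro-M1 took another form. Macro-others had more transcripts of several chemokines and interferon-stimulated genes and of Tnf and Il10, and fewer of most measured dendritic cell genes. Of 5634 genes measured, 14 were called higher (0.248%) and 61 lower (1.08%), 75 in all (1.33%), and the median over all genes was -0.04. Pools did not overlap for 1069 genes (19%). Non-overlap and the same direction in every pool are easier to reach with 4 pools than with 8. The shares of genes in the short-term comparisons therefore cannot be set beside the long-term ones. Of 17 chemokine ligands 6 were called higher and 2 lower (median 0.70), and of 14 interferon-stimulated genes 4 higher and 1 lower (0.76). Of 10 inflammatory cytokines Tnf and Il10 were higher and Tnfsf9 was lower (0.64). Of 7 monocyte genes 3 were called lower and none higher (-1.25).

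Il10 was at 23.2, 27.1, 22.9 and 36.7 CPM in the pools of Macro-others against 1.33, 4.23, 4.78 and 10.0 in those of Macro-M1, a ratio of 5.39 (4.28 to 6.86). Tnf, the cytokine tumor necrosis factor, was at 178.6, 199.4, 198.0 and 184.3 CPM against 69.2, 83.0, 69.8 and 87.6, a ratio of 2.45 (2.30 to 2.62). No pool of Macro-M1 reached a Macro-others pool for either gene, and subcluster 1 held 94.9% of the Il10 and 88.6% of the Tnf UMIs with 58.6% of the cells. Ccl4, which attracts several kinds of immune cells, was at 3253, 3279, 3290 and 3522 CPM against 1347, 1356, 1485 and 1278, and Ccl3 was at 1188 against 514.8 CPM over the experiment. Cxcl1 and Cxcl2, which attract neutrophils, were at 384.7 against 140.2 and at 3204 against 1586 CPM. Cxcl10, at 282.6 against 134.1 CPM, was called although its pools overlapped (242.0, 262.8, 178.9 and 434.4 against 84.1, 121.3, 93.0 and 232.7). Ifit2 and Ifit3, antiviral RNA-binding proteins, were at 88.8 against 31.0 and 52.3 against 15.9 CPM, and Isg15, a ubiquitin-like modifier, at 229.5 against 110.2.

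The study's own list of anti-tumor cytokines had 3 of 6 measured genes called higher (median 0.86), and its list of pro-tumor cytokines 4 of 11 higher and 2 lower (0.75). Both lists are the study's choice and are not independent evidence of a direction.

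Dendritic cell genes went the other way, with 5 of 6 mature dendritic cell genes, 5 of 7 type 2 and 3 of 6 type 1 dendritic cell genes called lower (medians -2.02, -1.88 and -0.81) and none higher. Ccl17 was at 2.38, 2.69, 3.23 and 0.810 CPM against 27.1, 22.1, 26.8 and 74.3, a ratio of 0.0591 (0.0401 to 0.0842). Cd209a was at 8.03, 9.94, 4.70 and 0 CPM against 40.7, 63.9, 44.0 and 31.8, and Fscn1 was at 6.83 against 45.8 and Ccr7 at 11.7 against 64.7 CPM over the experiment. In T22 these genes were thus lower in Macro-others than in Macro-M1, whereas in the long-term experiment Ccl17 and Fscn1 were called higher in Macro-others. In T22 Ccl17, Fscn1 and Ccr7 were measured through Macro-M1 alone, so the counts and medians of their lists partly reflect which genes were measured. S100a4, a calcium-binding protein of motile cells, was at 152.2 against 644.4 CPM and Plac8 at 46.2 against 111.4. Leaving out subclusters 4, 9 and 11 to 16 kept all 75 calls, among 102 then made. Without the dividing subclusters 110 genes were called, 16 higher and 94 lower, and 72 of the 75 remained. The 3 lost were Isg15 (log2 0.97), Clec10a (-0.92) and Nr4a2 (-0.98), and 6 of 14 cell cycle genes were then called lower, by construction.

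Against T22 Macro-M2, most measured monocyte genes were lower and most measured cell cycle genes higher. Of 5707 genes measured, 65 were called higher (1.14%) and 131 lower (2.3%), 196 in all (3.43%), with a median of -0.04 over all genes. Pools did not overlap for 1452 genes (25.4%). Of 12 monocyte genes 10 were called lower (median -2.62). Ly6c2 was at 4.16, 5.91, 1.47 and 10.3 CPM against 174.8, 139.0, 84.7 and 126.8, a ratio of 0.0416, and Fn1 was at 42.5, 11.8, 18.8 and 8.91 CPM against 331.8, 230.2, 340.4 and 176.3. Ccr2 was at 24.1 against 71.8 CPM and Chil3 at 10.8 against 93.9, and Mrc1 was at 44.5 against 185.6. Of 4 type 2 dendritic cell genes 2 were called lower (-1.21), among them Cd209a at 5.64 against 110.8 CPM, and of 8 tissue-resident genes 3 were (-0.96), among them Mgl2 at 16.3 against 100.9. Il10 was again higher, at 27.7 against 10.98 CPM, a ratio of 2.52 (2.02 to 3.17) with no overlap of pools, and C5ar1 was at 90.0 against 153.2 CPM, which did not reach 2-fold.

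Of 15 cell cycle genes 9 were called higher than in T22 Macro-M2, with a median of 1.28. Top2a was at 191.7, 256.6, 283.5 and 211.8 CPM against 65.0, 28.8, 39.5 and 34.3, a ratio of 5.57 (5.01 to 6.20), and Birc5 was at 95.6 against 15.5 CPM. Subcluster 6 held 60.5% of the Top2a UMIs. Without the dividing subclusters 126 genes were called, 2 higher and 124 lower, and none of 9 cell cycle genes was called. Against T22 Macro-M1 none of 15 cell cycle genes was called, with Top2a at 236.0 against 156.5 CPM.

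In the short-term T127 experiment Macro-others differed from Macro-M2 by genes of dendritic cells and of cell division, and had less of most measured monocyte genes and of several chemokines. Of 5987 genes measured, 178 were called higher (2.97%) and 79 lower (1.32%), 257 in all (4.29%), with a median of -0.02 over all genes. Pools did not overlap for 1353 genes (22.6%). Macro-M1 held 3 cells in this experiment and was not compared. All 7 measured mature dendritic cell genes were called higher (median 3.42), 3 of 7 type 2 genes (1.49) and 2 of 4 type 1 genes (1.51). These values rest on 213 cells, 83 of them in subcluster 4 and 16 in subcluster 14. Fscn1 and Ccr7 were too low in Macro-M2 to be measured there and entered through Macro-others alone. The share of mature dendritic cell genes called and their median are thus partly set by which genes were measured.

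Fscn1 was at 148.6, 247.7, 62.8 and 212.6 CPM in Macro-others against 0.831, 2.37, 1.58 and 5.74 in Macro-M2, a ratio of 59.5 (42.7 to 85.3). Ccl22, a chemokine for regulatory T cells, was at 198.7, 425.9, 74.1 and 515 CPM against 2.49, 2.37, 8.21 and 30.3, and Il12b, a subunit of the cytokines that direct T helper cells, was at 92.1, 114.5, 55.3 and 68.9 CPM against 0, 0, 0 and 8.20. Every Macro-others pool was above every Macro-M2 pool for these genes, and the 16 cells of subcluster 14 held 98.1% of the Fscn1, 90.3% of the Ccl22 and 99.5% of the Il12b UMIs. Ccl17 was at 2386, 1111, 822.8 and 1499 CPM against 328.3, 306.2, 254.1 and 391.2, a ratio of 4.42 (4.23 to 4.62), and Cd209a at 164.8, 225.2, 252.5 and 256.0 against 60.1, 60.7, 95.002 and 107.2, with 97.0% and 96.8% of each in subcluster 4. Ccr7 was at 165.1 against 14.5 CPM over the experiment and Flt3, the receptor of the growth factor that dendritic cells depend on, at 20.6 against 0.914. The summed level of the mature dendritic cell list in Macro-others was 3128 CPM in T127, against 411.6 in the long-term and 155.8 in the T22 experiment.

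Of 16 cell cycle genes 12 were called higher (median 1.66), and Top2a was at 366.7, 127.6, 218.6 and 235.0 CPM against 26.04, 19.3, 17.7 and 23.8. The dividing subclusters held 5 T127 cells, and 63.3% of the Top2a UMIs lay in subcluster 4, the subcluster led by Ccl17 and Cd209a. Of 21 chemokine ligands 3 were called higher (Ccl5, Ccl17 and Ccl22) and 8 lower, with a median of -0.70. Pf4 was at 386.0, 187.6, 172.1 and 233.6 CPM against 1641, 2072, 1868 and 2166, Cxcl2 at 1945, 1531, 2467 and 1614 against 4396, 4243, 4206 and 4491, and Ccl2 at 482.4 against 1260 over the experiment. Of 13 monocyte genes 7 were called lower (median -1.02), Arg1 was at 191.5 against 572.0 CPM, and Vegfa, the vessel growth factor, was at 159.4 against 371.8. C5ar1 was at 122.8, 105.1, 96.7 and 79.3 CPM against 195.9, 206.5, 202.6 and 199.0, a ratio of 0.498 that with 1 CPM added stayed just under 2-fold.

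Leaving the 115 cells of subclusters 4, 9 and 11 to 16 out of T127 Macro-others, with Macro-M2 kept whole, left 98 cells and changed many calls. Of these 98 cells 27 were in subcluster 10, which carried monocyte genes. Then 431 genes were called, 173 higher and 258 lower, 69 of the first 257 remained and 15 turned. Of 16 macrophage identity genes 7 were called higher (median 0.70) where none had been, and of 13 cell cycle genes 5 (0.82). Monocyte genes were lower in 6 of 13 (-0.73). With subcluster 4 kept, 207 genes were called, 150 higher and 57 lower, 181 of them among the first 257, and macrophage identity genes had none of 16 called (median 0.06). Leaving subcluster 4 out raises the identity list by construction, since its identity genes summed to 20396 CPM against 36510 in the remaining cells of all experiments and Macro-M2 was kept whole. Mature dendritic cell genes were called higher in 1 of 4 measured (1.54) with subcluster 4 kept, since the 16 cells of subcluster 14 were left out.

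**Figure D5:**
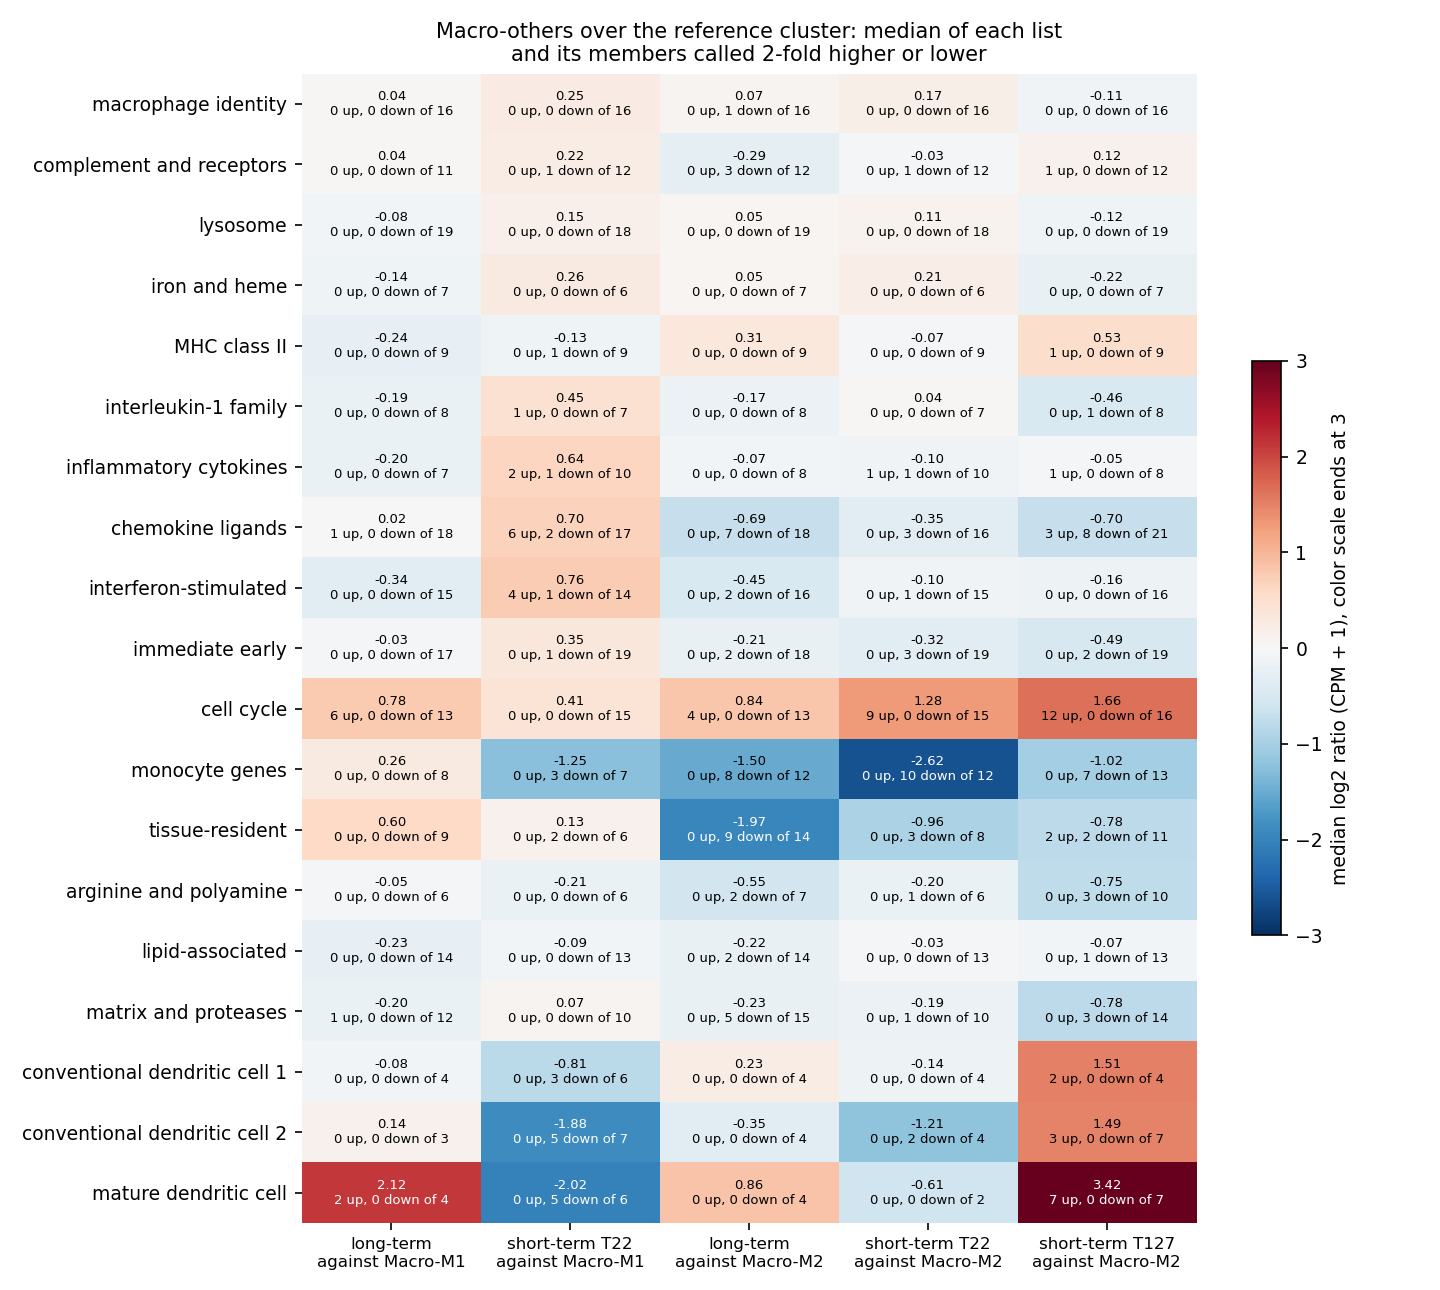
Median log2 difference of 19 gene lists (rows) between Macro-others and the reference cluster in 5 comparisons (columns), as color from -3 to 3, with the counts of genes called higher and lower written in each field. The monocyte list is below 0 in every comparison but long-term Macro-M1, and the mature dendritic cell list ranges from -2.02 in T22 against Macro-M1 to 3.42 in T127.

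Across genes, the profile of Macro-others correlated best with that of Macro-M1 in the long-term and T22 experiments. In T127, where Macro-M1 was not compared, it correlated best with that of Macro-M2. Over the log2 levels of 4901 to 5094 genes in the long-term experiment, Pearson's r was 0.987 with Macro-M1, 0.985 with CD16-CDKN1C and 0.973 with Macro-M2. By genes at least 2-fold apart, whatever the pools, CD16-CDKN1C was as near as Macro-M1, with 64 of 5009 (1.28%) and 64 of 4901 (1.31%). In T22 it was 0.982 with Macro-M1, 0.969 with CD16-CDKN1C and 0.958 with Macro-M2. In T127 it was 0.932 with Macro-M2 and 0.927 with CD14-PF4. The points are genes of the same libraries and are not independent, so these values only rank the clusters.

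Some of the genes called against Macro-M2 were called in the same direction in another experiment. Against Macro-M2, of 4834 genes measured in both the long-term (150 called) and the T22 experiment (196 called), 83 were called in the same direction and 0 in opposite ones. The shared genes included Ly6c2, Fn1, Plac8, Ccr2, Mrc1 and Chil3 among those lower and Top2a, Mki67, Birc5 and Cenpf among those higher. The long-term and T127 experiments (257 called) had 51 in the same and 2 in opposite directions of 4865, and T22 and T127 had 64 and 7 of 5346. Against Macro-M1, the long-term and T22 experiments had 0 in the same and 3 (Ccl17, Fscn1 and Epcam) in opposite directions of 4693. These counts were not tested.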

How the data were processed

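Single-cell libraries of dissociated mammary tumors were examined in 16 pools. The deposited tables hold raw UMI counts of 32285 genes per cell, which the authors obtained with Cell Ranger 6.0.0 on the mouse genome GRCm38, per the submitters' processing notes, together with a cluster name per cell. The labels give the organism as human, but the files hold mouse genes and the study describes mice. The authors removed doublets before naming cells and none were called again. The deposited counts sum to between 34755906 and 55600377 UMIs per pool. All columns were mapped to a sample (0 left over).

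Cells named Macro-others, Macro-M1 and Macro-M2 were taken from the deposited annotation. Of copies of a 16-base barcode shared between long-term pools, the deepest was kept. Counts were summed per cluster and experiment or pool and scaled to CPM. A gene was measured at 20 CPM or more in either cluster, and called at a 2-fold difference with 1 CPM added and the same direction in every pool with at least 20 cells of both clusters. A gene below that level in a cluster could be measured through the other alone. This favors genes that differ in the counts and medians of a list. Clusters with under 50 cells in an experiment were not compared. Ratio intervals are exact 95% intervals of summed UMIs and share intervals are Clopper-Pearson, and neither covers more than counting error. Where the percentage of cells with a UMI is given, each cell was first reduced at random to 3000 UMIs, which dropped 118 long-term Macro-others cells with fewer. Macro-others cells were divided again by Leiden clustering (leidenalg 0.10.2, igraph 0.11.9) on 2000 variable genes, 30 principal components and 15 neighbours at resolution 0.5, and named from fixed markers where these gave a name. Subclusters 0, 1, 2, 9, 11, 12 and 15 got no name from them. Other steps used scikit-learn 1.9.0, pandas 2.3.3, scipy 1.17.1 and numpy 2.4.6 in Python 3.11.15, with figures from matplotlib 3.10.9, and the calling step was tested on simulated data.

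The members and the 45 gene lists were chosen with earlier results of these data known. Named genes were the 10 called higher and 10 called lower with the largest long-term folds in each comparison, those called against both references, the 3 label markers, and list members called in the long-term pools with up to 4 more per list. Genes named beyond these in the short-term comparisons, C5ar1 and Vegfa, and the genes that lead subclusters were chosen after their values were seen. Predicted genes were counted and not named. Alternatives were another pseudocount, no minimum level, other scaling, all cells as deposited, leaving out the deepest 5% of cells, a minimum of 1000 genes per cell, thinned counts, means over cells, leaving out each pool and, added after the data were seen, leaving out subclusters whose best-matching list, with at least 3 genes, was of another cell type or that had at least 10 of 20 leading genes highest in tumor cell, fibroblast or endothelial clusters, with or without subcluster 4 among them, or those led by cell cycle genes. The monocyte list did not count as another cell type in this rule, so subcluster 10 was kept.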

Additional observations from a re-analysis of the deposited data

Results flagged for a closer look

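In 9 of 70 groups of pools looked at, the highest pool stood apart from the others by Dixon's criterion. Its rate of about 1 flag in 20 groups holds for independent, normally distributed values. Most of these genes were chosen for large differences in the long-term pools, so that rate is no baseline for the 9 flags. Among the long-term pools of Macro-others, Cxcl13 reached 159 CPM in 1 pool against a median of 8.36 in the others, Lyz1 91.6 against 18.0, Fscn1 71.3 against 12.9, Timp3 58.1 against 21.3, Wfdc21 45.2 against 18.6 and Cdkn2a 36.5 against 20.8. Of the Cxcl13 UMIs, 44.5% were in 1 cell. In the T22 experiment Retnla reached 78.2 CPM in 1 pool against a median of 0.270 in the others, and 86.5% of its 303 UMIs were in 1 cell. In the T127 experiment the cell cycle genes Cenpf, at 241 CPM against 50.7, and Ccna2, at 56.5 against 31.4, were high in 1 pool.

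Some genes were called in opposite directions in different experiments, and these differences were not tested. Against Macro-M1, Ccl17 had a log2 difference of 2.20 in the long-term and -3.59 in the T22 experiment, Fscn1 2.50 and -2.58, and the epithelial adhesion gene Epcam 1.47 and -1.58. Leaving out subclusters 4, 9 and 11 to 16, which hold most of the long-term Ccl17 and Fscn1 UMIs, removes such higher calls in the long-term experiment by construction, since the reference was kept whole. In T22 these genes then stayed called lower, Ccl17 at -4.07, Fscn1 at -4.23 and Epcam at -2.56. In the long-term experiment Epcam was called lower (17.8 against 47.1 CPM, log2 -1.36), and Ccl17 (-3.06) and Fscn1 (0.17) were not called. Against Macro-M2, the complement gene C4b had -1.56 in the long-term and 1.39 in the T127 experiment. The lectins Cd209a and Mgl2 had -4.07 and -2.55 in T22 and 1.49 and 1.02 in T127. Without the same subclusters, which held nearly all of the T127 Cd209a, both were called lower in T127 too, likewise by construction, Cd209a at 0 against 80.1 CPM and Mgl2 at 37.3 against 251.6. C4b then stood at -1.42 in the long-term and 2.58 in the T127 experiment.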

How the results depend on the processing

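Each experiment is 1 sample, the labels do not name the tumors in a pool, and the name covers several kinds of cells, so counts of called genes describe these cells and not a population of animals. No paired analysis was possible because no result comes from a test. Clusters were already compared within each pool. The count against long-term Macro-M1, 46 genes, was 23 with 10 CPM added, 152 with no minimum level, 25 without the deepest 5% of cells (21 of the 46 remained), 22 as a mean over cells and 26 with thinned cells, where 22 were higher and 4 lower. With 10 CPM added the count against long-term Macro-M2 was 82 (9 higher, 73 lower) in place of 150. With no minimum level the counts were 318 there, and 257 and 535 in T22 against Macro-M1 and Macro-M2 and 711 in T127. Without the deepest 5% of cells, with thinned cells and as a mean over cells, 13.2%, 8.57% and 8.11% of the genes called against long-term Macro-M2 were higher, in place of 22%, and as a mean over cells 32.1% against T22 Macro-M1, in place of 18.7%. Leaving out each pool gave 42 to 53 and 137 to 159 genes in the long-term comparisons with Macro-M1 and Macro-M2, 78 to 84 and 191 to 210 in T22, and 255 to 325 in T127. Scaling by the median of ratios moved all genes by at most 0.05 on the log2 scale.

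Alternatives chosen after seeing the data left out subclusters. Without the dividing ones 96 genes were called against Macro-M2 in the long-term and 126 in the T22 experiment. Without subclusters 4, 9 and 11 to 16 431 genes were called in T127, the higher share of calls against long-term Macro-M1 went from 95.7% to 59.2% and that in T127 from 69.3% to 40.1%. Of 69 ratios of named genes, 14 that were called with all cells then changed sign. Sign changes of ratios not called with all cells were not counted. Against Macro-M1 these were Asgr2 (-1.56), Plet1 (-1.14), Ccl17 (-3.06), Tm4sf1 (-0.30), Wfdc2 (-0.35), Timp3 (-0.17), Crabp2 (-0.58), Cavin3 (-0.37) and Hmga2 (-0.15), and against Macro-M2 Tm4sf1 (-0.92), Htra1 (-0.62), Crabp2 (-0.73), Cavin3 (-0.74) and Hmga2 (-0.58). With subcluster 4 kept 207 genes were called in T127 and 11 ratios called with all cells changed sign. Against Macro-M1 these were Tm4sf1 (-0.26), Wfdc2 (-0.25), Timp3 (-0.18), Crabp2 (-0.43), Cavin3 (-0.24) and Hmga2 (-0.13), and against Macro-M2 Tm4sf1 (-0.88), Htra1 (-0.57), Crabp2 (-0.58), Cavin3 (-0.61) and Hmga2 (-0.55). The share of all cells in the long-term experiment was 13.6% with all cells as deposited, 16.7% with at least 1000 genes per cell and 13.5% without those subclusters. In T22 it was 8.58% without the deepest 5% of cells, 9.23% with at least 1000 genes and 6.99% without those subclusters, and in T127 1.24% without them. With subcluster 4 kept the shares were 7.08% in T22 and 2.27% in T127. Leaving out each pool gave 15.2 to 15.6%, 8.13 to 8.33% and 2.57 to 2.74%.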

Other observations

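Several gene groups of macrophage housekeeping lay close in Macro-others and its neighbours. None of the measured genes of the lysosome, MHC class I, iron and heme handling or Fc gamma receptor lists was called in any of the 5 comparisons, in which 0.939 to 4.29% of all measured genes were, so that few or no calls would be usual in lists of this size. The lysosome list had 18 or 19 genes measured, with medians between -0.12 and 0.15, and the MHC class I list 10 or 11 genes with medians between -0.02 and 0.21. Trem2, a lipid-sensing receptor of tumor macrophages, was at 614.4 CPM in long-term Macro-others against 562.6 in Macro-M1 and 511.7 in Macro-M2. Csf1r, the receptor of the growth factor that macrophages need to survive, was at 614.7 CPM in long-term, 1285 in T22 and 506.1 in T127 Macro-others, and in T127 it was lower than in every Macro-M2 pool, where it was at 601.1.

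Long-term Macro-others pools 1 to 4 and 5 to 8 differed in genes of macrophages and of other cells. The summed lysosome list was between 29544 and 31478 CPM in pools 1 to 4 and between 25564 and 25844 in pools 5 to 8, the inflammatory cytokines between 1037 and 1219 and between 1596 and 1709.9, and the p53 targets and DNA damage list between 1228 and 1379.8 and between 1929 and 2042. The summed level of the erythroid and platelet list was 1520, 1413, 1322 and 1338 CPM in pools 1 to 4 and 4001, 3942, 4699 and 5392 CPM in pools 5 to 8. C5ar1 was at 170.4, 159.5, 171.8 and 170.1 CPM in pools 1 to 4 and 118.3, 129.3, 129.6 and 114.7 in pools 5 to 8, and it was lower than in Macro-M2 in each of the 8. In T127 the erythroid and platelet list was at 43.6, 11.3 and 8.79 CPM in 3 pools and at 10989 in pool 4. The labels name no batch within an experiment, these sets of pools were seen in the values, and the source of the differences was not tested.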
